A study of Mus musculus with 34 samples.

Results

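The set described here is the group of nuclear genes for the first 3 complexes of the mitochondrial respiratory chain. A gene belongs to it when a probeset of the array lists a single symbol that starts with Nduf or Uqcr, or that is Sdha, Sdhb, Sdhc, Sdhd or Cyc1. Pseudogenes were to be dropped and 0 were found, and a gene with several probesets was represented by the brightest. These rules gave 56 genes of the 19938 genes measured. By role they are 6 core subunits of complex I, 28 accessory subunits of complex I, 7 assembly factors of complex I (Ndufaf1 to Ndufaf7), 4 subunits of complex II, 9 subunits of complex III, and Ndufa4 with its paralog Ndufa4l2. Ndufa4 was named as a complex I subunit and is now regarded as a subunit of complex IV, so the pair is kept apart. Of the subunits encoded by the mitochondrial genome, 0 were measured.

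The study followed 2 mouse pre-B acute lymphoblastic leukemia lines as they became tolerant to a drug. Line 8093 came from a BCR/ABL transgenic mouse on an inbred C57Bl/6J background and line Bin-2 from one on a mixed background, so each line is 1 leukemia. Every group shared the BCR/ABL transgene, medium with interleukin-3, and a layer of irradiated mouse embryonic fibroblasts that was kept throughout. Only cells in the medium or loosely attached to that layer were taken for RNA.

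Nilotinib, an inhibitor of the BCR/ABL tyrosine kinase, was given at 20 nM to 8093 and at 50 nM to Bin-2. Lonafarnib, a farnesyltransferase inhibitor, was given at 1 µM to 8093 and at 0.25 µM to Bin-2 according to the treatment protocol. Each drug had its own start group at day 0, before drug. The midpoint was day 3, or day 4 for 8093 with lonafarnib, when 5 to 10% of the cells were viable (20% for 8093 with lonafarnib). The end was day 20 for 8093 with nilotinib, day 26 for 8093 with lonafarnib, day 21 for Bin-2 with nilotinib and day 30 for Bin-2 with lonafarnib, when about 90% were viable and growing in drug. Each group had 3 arrays from separate plates, except the 2 end groups of 8093, which had 2, giving 34 arrays in 12 groups. The midpoint samples came from a larger dish or from pooled dishes. Replicates are separate plates of 1 line, so p-values measure the spread between plates and not between leukemias.

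Complex I takes electrons from NADH, complex II takes them from succinate, and both hand them to ubiquinone. Complex III passes them from ubiquinol to cytochrome c, and complexes I and III pump protons as they do so. The core subunits of complex I carry its flavin and iron-sulfur clusters, the accessory subunits surround and stabilise them, and the assembly factors help to build the complex without staying in it. Leukemic pre-B cells, like other dividing lymphoid cells, use the chain both for ATP and to regenerate the oxidised cofactors that nucleotide and aspartate synthesis needs.

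All values below are deposited log2 probeset signals, on which a difference of 1 unit stands for a factor of 2 in signal. A change is the difference between 2 group means, given with its standard error (SE). A gene is said to have risen or fallen only where limma's test, with Benjamini-Hochberg adjustment over all 19938 genes, gave an adjusted p below 0.05. Apart from the brightness of the set as a whole, signals of different probesets were not set against each other.

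Markers of other cell types changed on the same arrays. In 8093 with nilotinib the mean log2 signal of 14 mast cell markers went from 3.97 at the start to 8.71 at the midpoint and 10.43 at the end, and 13 of the 14 rose at both times. The mean of 12 macrophage markers went from 5.03 to 9.14 and 9.0, and 11 of the 12 rose at both times. The mean of 13 fibroblast markers went from 4.88 to 6.28 and 5.54, with 12 and then 3 of the 13 called higher. The mean of 15 pre-B cell markers was 8.66, 8.63 and 5.73, and 14 of the 15 had fallen at the end. At the midpoint of 8093 with lonafarnib 10 of 14 mast cell, 7 of 12 macrophage and 2 of 13 fibroblast markers rose. In Bin-2 with nilotinib 12 of 12 macrophage markers rose at both times, joined at the end by 11 of 14 mast cell markers. At the midpoint of Bin-2 with lonafarnib 7 of 12 macrophage, 7 of 13 fibroblast and 0 of 14 mast cell markers rose. Of the 15 pre-B cell markers 5 fell there (median −0.30), and 9 rose from midpoint to end (median 0.52). T and NK cell markers stayed between 3.6 and 4.2 on average. Whether other cells or the leukemia cells themselves carried these markers cannot be told from bulk RNA. The part of the markers in the changes below was not tested. In bulk RNA, fewer cells that express a gene and less of its RNA per cell cannot be told apart.

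The spread of signals within an array also moved with the groups. The interquartile range over all probesets was 3.03 ± 0.096 (SD, n = 3) at the midpoint of 8093 with nilotinib and 3.16 ± 0.10 (SD, n = 3) at the midpoint of Bin-2 with lonafarnib, against group means of 3.42 to 3.55 elsewhere. Repeating the fit after quantile or cyclic loess normalization therefore accompanies the results it alters. The 56 genes were bright: the median of their mean log2 signals was 8.076, against 5.449 for all genes. Of all genes, 83.3% were dimmer than the median of the 56. The shares and medians over all genes given below are not matched for brightness. Across the 56 genes, change and start level had a Pearson r of −0.376 at the midpoint of 8093 with nilotinib. It was −0.169 at that of Bin-2 with lonafarnib. The part of brightness in the counts was not tested.

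The first comparison asks how the set stood when most 8093 cells had died in nilotinib. Here 48 of the 56 genes fell and 0 rose, where 27.5% of all genes tested fell and 22.6% rose, 50.1% in all. The median change of the 56 was −1.04, and that of all genes was 0.028. The mean log2 signal over the 56 was 8.45 ± 0.085 (SD, n = 3) at the start and 7.53 ± 0.036 (SD, n = 3) at the midpoint. The 48 genes had no overlap between their start and midpoint arrays. The share of all genes without such overlap was not counted, so this adds no support beyond the calls. After quantile normalization 41 genes were called and the median was −0.78, and after cyclic loess 37 were called (36 lower and 1 higher) with a median of −0.64. Under every setting tried and with any single array left out, 36 of the 48 calls were kept.

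**Figure D1:**
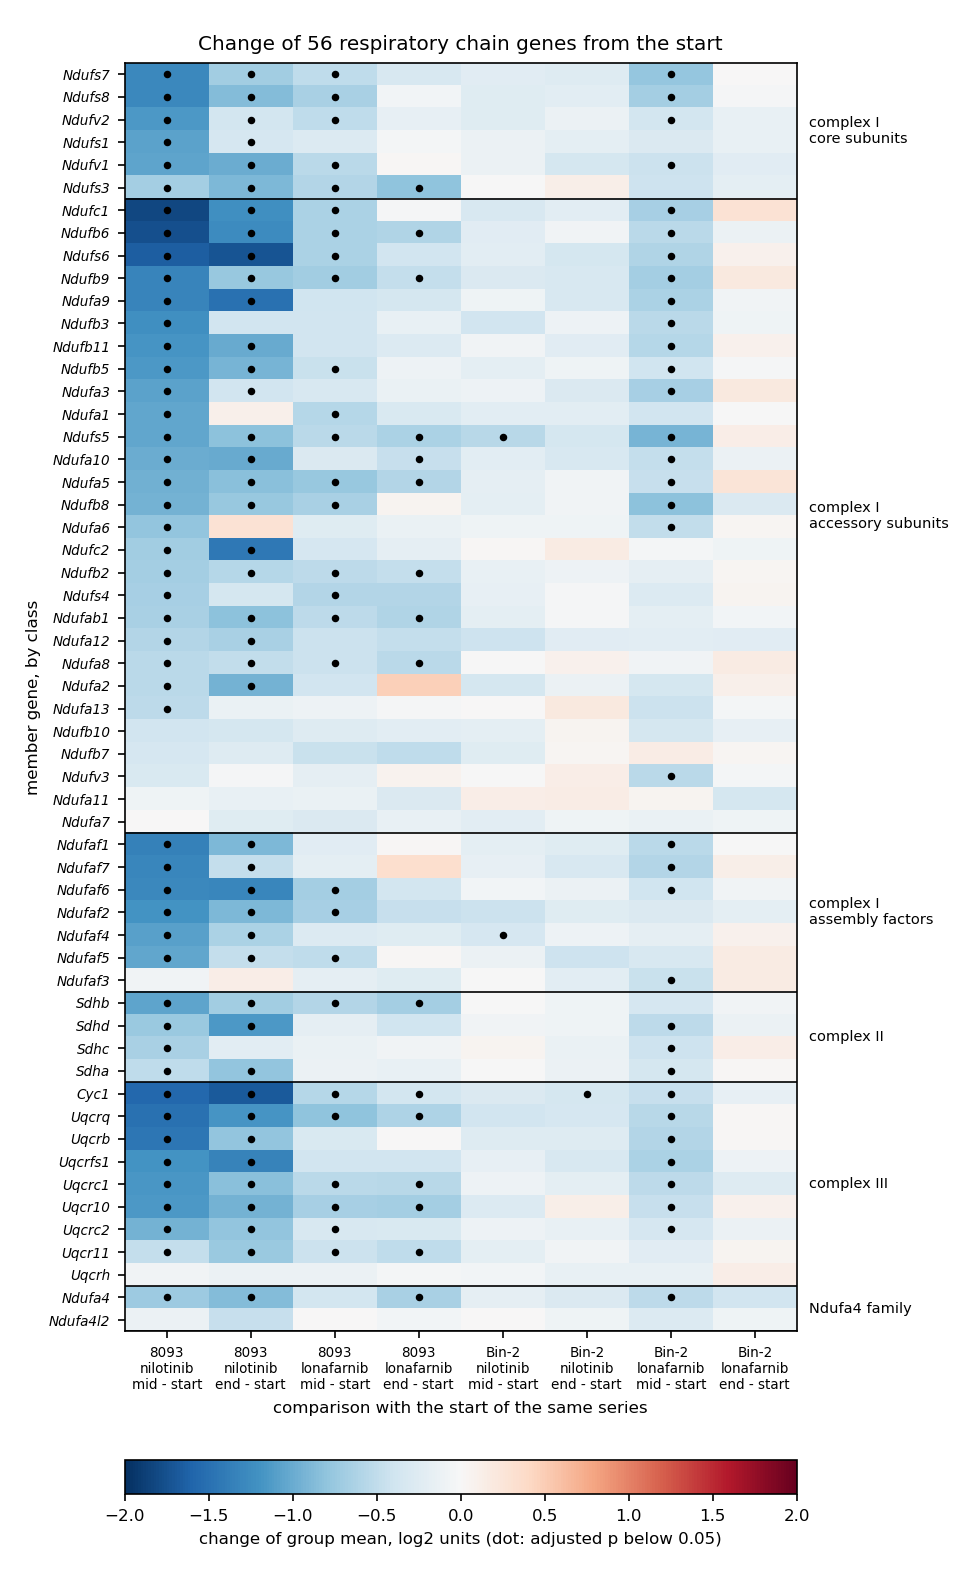
Change of each of the 56 genes from the start of the same series, in log2 units (colour, blue lower and red higher), for the 8 comparisons of line, drug and time on the horizontal axis; genes are ordered by class on the vertical axis and a dot marks an adjusted p below 0.05. The column for 8093 with nilotinib at the midpoint holds 48 dots and the last column, Bin-2 with lonafarnib at the end, holds 0.

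The 3 genes that fell furthest at that midpoint were Ndufc1, Ndufb6 and Ndufs6. Their promoters are printed here beside that of Uqcrh, shown as an example of the 6 genes called in none of the 8 comparisons with a start. The sequences are RefSeq windows of build GRCm38.p6 from 250 bases before to 50 bases after the annotated start, 5′ to 3′ on the gene's strand. Capitals mark 3 motifs known from promoters of respiratory chain genes, searched on both strands and shown as they read on the gene's strand: the NRF1 motif (GCGC, any base, then TGCGC), the ETS factor motif CCGGAAG and the YY1 motif AAGATGGC. Ndufc1 lies at chr3:51408906-51409205 on the minus strand, Ndufb6 at chr4:40279372-40279671 on the minus strand, Ndufs6 at chr13:73328433-73328732 on the minus strand and Uqcrh at chr4:116075021-116075320 on the minus strand.
Ndufc1: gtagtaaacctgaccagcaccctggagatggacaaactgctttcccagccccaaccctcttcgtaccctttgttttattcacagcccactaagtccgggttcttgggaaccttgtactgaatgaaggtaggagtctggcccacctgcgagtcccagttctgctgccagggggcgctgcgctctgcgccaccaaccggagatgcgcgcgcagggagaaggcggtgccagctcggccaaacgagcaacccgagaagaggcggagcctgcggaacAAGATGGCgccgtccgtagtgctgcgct
Ndufb6: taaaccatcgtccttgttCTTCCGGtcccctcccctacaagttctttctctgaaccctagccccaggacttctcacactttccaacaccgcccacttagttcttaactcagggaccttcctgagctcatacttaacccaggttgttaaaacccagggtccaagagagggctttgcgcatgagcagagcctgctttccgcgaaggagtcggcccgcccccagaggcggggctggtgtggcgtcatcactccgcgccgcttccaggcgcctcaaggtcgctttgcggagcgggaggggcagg
Ndufs6: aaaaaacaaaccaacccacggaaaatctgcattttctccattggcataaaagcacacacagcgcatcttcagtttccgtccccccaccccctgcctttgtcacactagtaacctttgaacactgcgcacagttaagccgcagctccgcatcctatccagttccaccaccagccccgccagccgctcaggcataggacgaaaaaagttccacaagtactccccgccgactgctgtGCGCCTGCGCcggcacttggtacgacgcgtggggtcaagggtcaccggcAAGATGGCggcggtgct
Uqcrh: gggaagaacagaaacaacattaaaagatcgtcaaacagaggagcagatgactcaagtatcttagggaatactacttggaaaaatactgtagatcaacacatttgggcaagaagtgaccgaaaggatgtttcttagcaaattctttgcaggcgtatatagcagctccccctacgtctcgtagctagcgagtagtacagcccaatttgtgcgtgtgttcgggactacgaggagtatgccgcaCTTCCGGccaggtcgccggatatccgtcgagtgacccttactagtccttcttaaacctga

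Ndufc1 holds the YY1 letters just after its start, Ndufs6 holds the NRF1 letters just before and the YY1 letters just after its start, and Ndufb6 and Uqcrh each hold the ETS letters. A window was found for 46 of the 56 genes, 48 windows in all. The NRF1 letters stood in 25% of the 48 windows and in 4.6% of all 32851 windows of 300 bases (6.38% of 21262 for protein-coding genes). The YY1 letters stood in 14.6%, against 2.75% of all and 3.05% of protein-coding windows, and the ETS letters in 18.8%, against 8.86% and 11.6%. No 2 matches overlapped in a member's window. The median change at the midpoint of 8093 with nilotinib was −1.03 for the 25 genes with any of these letters and −0.99 for the 21 without. A match is a description of the window only.

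Among accessory subunits of complex I, 23 of 28 fell (median −0.87). Ndufc1, a small subunit of the membrane arm, measured 9.55, 9.70 and 9.59 at the start and 7.90, 7.61 and 7.86 at the midpoint. The sets of arrays were far apart, and the change was −1.82 (SE 0.131, adjusted p = 3.15e-12). Ndufb6, also in the membrane arm, measured 10.15, 9.96 and 9.87 before and 8.18, 8.47 and 8.09 after, a change of −1.75 (SE 0.155, adjusted p = 1.6e-10). Its lowest start array lay well above its highest midpoint array. Ndufs6, a zinc-binding subunit between the NADH and ubiquinone modules, went from 9.04, 8.87 and 8.86 to 7.60, 6.86 and 7.36, a change of −1.65 (SE 0.163, adjusted p = 1.36e-09). Its midpoint arrays were more scattered than those of Ndufc1 but still clear of the start. The 5 accessory genes not called were Ndufb10, Ndufb7, Ndufv3, Ndufa11 and Ndufa7.

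For Ndufa11, a subunit where the peripheral and membrane arms meet, the choice of probeset mattered. The probeset used changed by −0.08 (adjusted p = 0.671), and the dimmer one, not used, by −0.67 (adjusted p = 0.00174). The calls of Ndufs4, Ndufa12, Ndufa8, Ndufa2 and Ndufa13 were lost under both other normalizations, and those of Ndufab1 and Ndufc2 under cyclic loess.

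All 6 core subunits measured fell, with a median of −1.11. Ndufs7, which carries the last iron-sulfur cluster before ubiquinone, measured 9.64, 9.48 and 9.61 and then 8.31, 8.30 and 8.24. All midpoint arrays lay below all start arrays by a wide margin, and the change was −1.29. Ndufs8, its neighbour in the same module, went from 8.10, 7.83 and 7.93 to 6.46, 6.68 and 6.87, a change of −1.28. The flavin-binding Ndufv1, where NADH is oxidised, went from 9.26, 8.97 and 9.01 to 8.14, 7.84 and 8.08, a change of −1.06. The iron-sulfur subunits Ndufv2 and Ndufs1 changed by −1.14 and −1.08. Ndufs3 had the smallest change of the 6, −0.68 (adjusted p = 0.000684), and lost its call under cyclic loess.

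Of the 7 assembly factors 6 fell. Ndufaf1, needed to build the membrane arm, measured 8.53, 8.58 and 8.58 and then 7.33, 7.27 and 7.05, a change of −1.35 (adjusted p = 5.66e-11). Ndufaf7, a methyltransferase of the mitochondrial matrix, went from 7.71, 7.90 and 8.11 to 6.95, 6.46 and 6.39, a change of −1.31. The exception was Ndufaf3, which works with Ndufaf4 early in assembly: it changed by −0.065 (adjusted p = 0.744), while Ndufaf4 fell by 1.08 (adjusted p = 6.3e-11).

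All 4 subunits of complex II fell, with a median of −0.70. Sdhb, the iron-sulfur subunit, measured 8.63, 8.31 and 8.30 and then 7.45, 7.47 and 7.16, a change of −1.06 (SE 0.161). Its groups did not overlap. The membrane anchors Sdhd and Sdhc changed by −0.74 (SE 0.134) and −0.65 (SE 0.104). Sdha, the flavoprotein, went from 10.80, 10.66 and 10.63 to 10.30, 10.19 and 10.09, a change of −0.51 (SE 0.121, adjusted p = 0.00091). The 2 sets of Sdha arrays were separate, yet the call was lost under quantile and cyclic loess normalization, and that of Sdhc under cyclic loess.

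Of the 9 subunits of complex III 8 fell, with a median of −1.16. Cyc1, cytochrome c1, measured 10.31, 10.18 and 10.18 and then 8.70, 8.64 and 8.62, a change of −1.57 (SE 0.096, adjusted p = 1.37e-13). The replicates of both groups lay close together, with a wide gap between the groups. The small subunits Uqcrq and Uqcrb changed by −1.49 (SE 0.146) and −1.45 (SE 0.156). The Rieske iron-sulfur protein Uqcrfs1 changed by −1.19, and the core proteins Uqcrc1 and Uqcrc2 by −1.16 and −0.94. Uqcr10 changed by −1.15, and Uqcr11 by −0.47, a call lost under both other normalizations and when its probesets were averaged.

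Uqcrh, the acidic hinge protein between cytochrome c1 and cytochrome c, was the exception. It measured 9.34, 9.30 and 9.30 at the start and 9.21, 9.02 and 9.48 at the midpoint, a change of −0.075 (adjusted p = 0.578). Its groups overlapped, and over all 34 arrays it stayed between 9.02 and 9.6. Its change turned to 0.18 and 0.35 under quantile and cyclic loess normalization. The second probeset of Uqcr11, not used, changed by −0.014, so that the size for this gene depends on the probeset. Of the remaining pair, Ndufa4 changed by −0.73 (adjusted p = 0.000611), a call lost under cyclic loess, and Ndufa4l2 by −0.11 (adjusted p = 0.65).

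**Figure D2:**
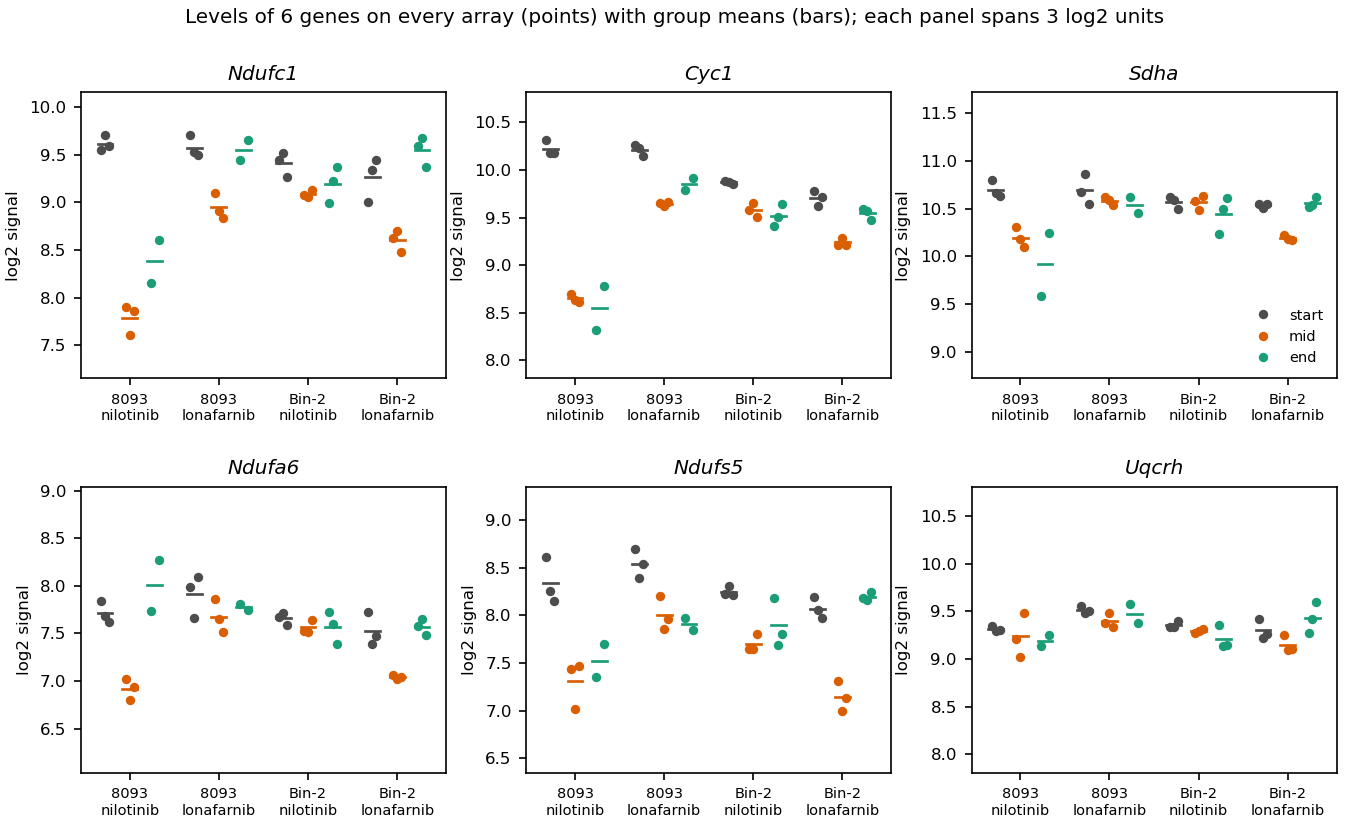
Log2 signal (vertical axis) of Ndufc1, Cyc1, Sdha, Ndufa6, Ndufs5 and Uqcrh on every array, with the 12 groups on the horizontal axis; points are arrays, bars group means, and each panel spans 3 log2 units. Cyc1 in 8093 with nilotinib sits at 10.31, 10.18 and 10.18 at the start and at 8.70, 8.64 and 8.62 at the midpoint, while Uqcrh stays between 9.02 and 9.6 on all arrays.

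At the end of nilotinib treatment in 8093, with growth restored, 42 of the 56 genes were still lower than at the start and 0 were higher (24.9% of all genes fell and 19.6% rose, 44.5% in all). The median change of the set was −0.77 and that of all genes −0.15. Fallen were 6 of 6 core subunits, 18 of 28 accessory subunits, 6 of 7 assembly factors, 3 of 4 subunits of complex II, 8 of 9 of complex III, and Ndufa4. This group has only 2 arrays, and they stood apart: their means over the 56 genes were 7.52 and 7.94, and their macrophage marker means 9.80 and 8.21, in that order. With any 1 array left out the count was 34 to 41, and 31 of the 42 calls were kept under every setting and array left out.

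Cyc1 at the end measured 8.31 and 8.78, both far below its start arrays, a change of −1.68 (SE 0.107, adjusted p = 5.15e-14). Ndufs6 measured 6.76 and 7.63, a change of −1.73 (SE 0.183, adjusted p = 2.88e-09). Ndufa9, an accessory subunit that binds NADPH, went from 10.00, 9.79 and 9.76 to 7.90 and 8.81, a change of −1.5 (SE 0.167, adjusted p = 8.57e-09). In all 3 genes the lower end array was the first one. Uqcrfs1 measured 8.18, 8.08 and 8.10 before and 6.43 and 7.13 after, a change of −1.34. Ndufaf6, an early assembly factor, changed by −1.31 (adjusted p = 7.93e-09).

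In complex II, Sdhd was lower at the end than at the midpoint: its arrays read 10.09, 9.83 and 9.86, then 9.15, 9.20 and 9.21, then 8.43 and 9.13. Its change from start to end was −1.14 (SE 0.149). Its further change from midpoint to end was −0.40 (SE 0.149, adjusted p = 0.0239). That second step rested on the first end array, without which it was −0.053, and the call was also lost without the third midpoint array. Sdhc went the other way and measured 9.11, 9.13 and 9.28, then 8.53, 8.62 and 8.42, then 9.03 and 8.90, so that its end did not differ from the start by the test (−0.21, adjusted p = 0.145). Sdhb at the end changed by −0.70, and by −0.25 with the call lost when the first end array was left out. Ndufa4 likewise changed by −0.87, and by −0.31 without that array.

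Between midpoint and end 18 genes rose and 2 fell, where 26.7% of all genes rose and 27.8% fell, 54.5% in all. This split depended on normalization: 7 rose and 11 fell after quantile normalization, and 11 and 9 after cyclic loess. The median of the 56 was 0.19 in the deposited values, −0.016 after quantile and 0.001 after cyclic loess normalization. Of the 20 calls, 7 held under every setting and with any array left out.

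Those 7 were 6 rises and 1 fall. Ndufa6, an accessory subunit of the LYR family, measured 7.84, 7.68 and 7.62 at the start, 7.02, 6.81 and 6.94 at the midpoint and 7.74 and 8.27 at the end. Its end arrays lay among or above its start arrays, and the rise from the midpoint was 1.08 (SE 0.143, adjusted p = 2.8e-07). Ndufa1, a small subunit of the membrane arm encoded on the X chromosome, measured 8.56, 8.52 and 8.38, then 7.54, 7.70 and 7.09, then 8.22 and 8.95, a rise of 1.14 (SE 0.167, adjusted p = 1.41e-06). Ndufb3 rose by 0.84, Ndufaf7 by 0.83, Ndufv2 by 0.77 and Ndufs1 by 0.74. The fall was that of Ndufc2, a membrane arm subunit, at 10.07, 10.25 and 10.21, then 9.50, 9.58 and 9.39, then 8.89 and 8.60. Its end arrays were the lowest of all, and it fell by 0.74 from the midpoint (SE 0.143, adjusted p = 8.39e-05).

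**Figure D3:**
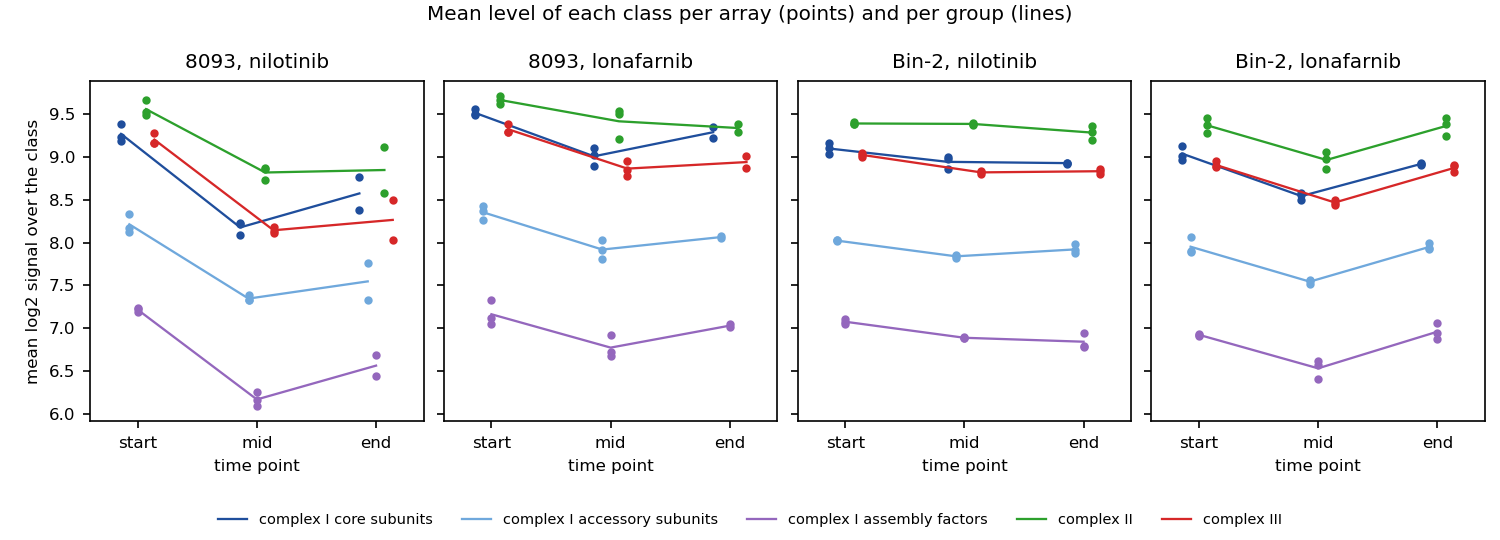
Mean log2 signal over the genes of each class (vertical axis) at start, mid and end (horizontal axis), 1 panel per line and drug; points are arrays and lines join group means. Heights of different classes come from different probesets and are not comparable. The means of all classes drawn are lower at the midpoint than at the start in every panel. In Bin-2 with nilotinib complex III goes from 9.021 to 8.817 and complex II from 9.387 to 9.382. Complex II in 8093 with lonafarnib goes from 9.66 to 9.41 and 9.33 at the end. The 2 end arrays of 8093 with nilotinib lie apart (7.52 and 7.94 over all 56 genes).

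Lonafarnib in 8093 gave a smaller change of the same sign. At its midpoint 28 of the 56 genes fell and 0 rose, where 6.9% of all genes fell and 3.89% rose. The median was −0.43, against 0.007 for all genes. The 28 were 5 of 6 core subunits, 13 of 28 accessory subunits, 3 of 7 assembly factors, 1 of 4 in complex II and 6 of 9 in complex III. Each had no overlap between its arrays, which was not counted over all genes. The count was 16 without the first start array and 16 without the third midpoint array, and 15 of the 28 calls held under every setting and array left out.

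Uqcrq, a subunit of complex III near the ubiquinone site, measured 8.37, 8.14 and 8.24 before lonafarnib and 7.63, 7.52 and 7.21 at the midpoint, a change of −0.80 (SE 0.146, adjusted p = 0.000487). Ndufa5, an accessory subunit of the peripheral arm, went from 7.81, 7.78 and 7.56 to 7.05, 7.12 and 6.73, a change of −0.75 (SE 0.131, adjusted p = 0.000262). Both genes kept a clear gap between the groups. Cyc1 measured 10.26, 10.23 and 10.15 and then 9.65, 9.62 and 9.66, a change of −0.57 (SE 0.096, adjusted p = 0.000186). Ndufb9, another LYR subunit, changed by −0.69 (SE 0.137), and the assembly factor Ndufaf6 by −0.68 (SE 0.13). In complex II the called gene was Sdhb, at 8.81, 8.70 and 8.87 and then 8.33, 8.39 and 7.92 (−0.58, adjusted p = 0.0173). Its call was lost without the first start array, the third start array or the third midpoint array. Sdha changed by −0.11 without a call, and its sign turned under both other normalizations.

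At the end of lonafarnib in 8093, 16 genes were lower than at the start and 0 higher, where 4.31% of all genes fell and 4.4% rose. The median was −0.29. These were Ndufs3, 8 accessory subunits, Sdhb, 5 subunits of complex III and Ndufa4, and 0 of the 7 assembly factors. Ndufs3 measured 10.28, 10.17 and 10.15 at the start and 9.46 and 9.35 at the end, a change of −0.80 (SE 0.177, adjusted p = 0.00333). Its midpoint arrays, at 9.75, 9.68 and 9.44, overlapped its end arrays. Sdhb changed by −0.685 and Ndufa4 by −0.649. Uqcr10 changed by −0.67 (adjusted p = 0.0063) and Uqcrc1 by −0.56 (adjusted p = 0.000666). This count leaned on single arrays: it was 2 without the second end array, 8 without the first end array or the first start array, and 9 without the third start array. Uqcrc1 alone kept its call under all settings and arrays left out. Of the mast cell markers 5 of 14 were higher at this end than at the start (mean 3.89 at the start and 4.97 at the end), and from midpoint to end 5 mast cell and 4 of 12 macrophage markers fell. Their part in these counts was not tested.

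From midpoint to end of lonafarnib in 8093, 6 genes rose and 0 fell (3.95% of all genes rose and 2.31% fell, 6.26% in all): Ndufa2, Ndufb8, Ndufc1, Ndufs8, Ndufv1 and Ndufaf7. Ndufc1 measured 9.70, 9.53 and 9.50, then 9.09, 8.91 and 8.84, then 9.44 and 9.65, so that its end arrays overlapped its start. Ndufv1 measured 9.35, 9.42 and 9.34, then 8.89, 8.82 and 8.79, then 9.51 and 9.28. The rises were 0.60 and 0.56, and that of Ndufs8 was 0.584. The count was 3 without the third midpoint array and 2 without the second end array, and only Ndufb8 (0.70, SE 0.134, adjusted p = 0.000888) kept its call under every setting and array left out. For Ndufa2, a subunit with a thioredoxin-like fold, the end arrays read 6.30 and 7.37, and its rise of 0.87 was 0.34 without the second.

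Nilotinib in Bin-2 changed the set little. At the midpoint 2 of the 56 genes fell and 0 rose, where 1.6% of all genes fell and 1.87% rose, 3.47% in all, and the median was −0.18, against 0.007 for all genes. Ndufs5, an accessory subunit on the intermembrane side, measured 8.22, 8.31 and 8.21 and then 7.65, 7.65 and 7.80, a change of −0.55 (SE 0.14, adjusted p = 0.0219). Ndufaf4 measured 7.86, 7.88 and 7.92 and then 7.53, 7.50 and 7.63, a change of −0.33 (SE 0.091, adjusted p = 0.0349). Neither gene's groups overlapped, yet the count was 0 without any 1 of the 3 start arrays or of the first 2 midpoint arrays, and 1 without the third midpoint array. Few genes passed the test, and 51 of the 56 changes were below 0, as were 9652 of the 19938 changes of all genes. The 56 genes were measured on the same arrays, so this count does not replicate the condition.

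At the end of nilotinib in Bin-2, 1 gene had fallen and 0 had risen (3.94% of all genes fell and 4.95% rose). This was Cyc1, at 9.88, 9.88 and 9.86 at the start, 9.58, 9.65 and 9.51 at the midpoint and 9.41, 9.50 and 9.64 at the end, a change of −0.35 (SE 0.096, adjusted p = 0.0158). Its end and start arrays did not overlap, and the call was lost without either of the first 2 start arrays or of the first 2 end arrays. From midpoint to end 0 genes of the set were called in either direction (1.41% of all genes were, 0.416% lower and 0.998% higher), and the median was 0.011. The 12 macrophage markers rose in these same groups from a mean of 5.89 to 8.60 and 9.44, and their part was not tested.

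Lonafarnib in Bin-2 gave a fall at the midpoint, and at the end no gene of the set was called against the start. At the midpoint 34 of the 56 genes fell and 0 rose, where 12% of all genes fell and 4.45% rose, and the median was −0.43, against −0.012 for all genes. The 34 were 4 of 6 core subunits, 15 of 28 accessory subunits, 4 of 7 assembly factors, 3 of 4 in complex II, 7 of 9 in complex III, and Ndufa4. Of these, 32 had no overlap between their arrays, which was not counted over all genes. After quantile normalization 16 were called and after cyclic loess 13, with medians of −0.34 and −0.31. Leaving out single arrays gave 23 to 30 calls, and 13 held under every setting and array left out.

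Ndufs5 measured 8.19, 8.05 and 7.97 at the start, 7.31, 7.0 and 7.14 at the midpoint and 8.19, 8.16 and 8.24 at the end. The midpoint stood alone below both other times. The change to the midpoint was −0.92 (SE 0.14, adjusted p = 7.61e-05), and the rise from there to the end was 1.05 (SE 0.14, adjusted p = 1.93e-06). Ndufb8, a membrane arm subunit, measured 7.57, 7.72 and 7.52, then 6.73, 6.85 and 6.75, then 7.28, 7.45 and 7.21, with a change of −0.83 at the midpoint (SE 0.119, adjusted p = 4.7e-05). Ndufs7 of the core measured 9.28, 9.57 and 9.33, then 8.57, 8.81 and 8.46, then 9.30, 9.44 and 9.48, with a change of −0.78 (SE 0.114, adjusted p = 5.33e-05). The end arrays of Ndufs7 lay within the range of its start arrays, and those of Ndufb8 lay just below it.

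In complex II 3 of the 4 genes fell at the midpoint (median −0.38) and 3 rose from midpoint to end (median 0.39). Sdha measured 10.55, 10.51 and 10.55, then 10.22, 10.18 and 10.17, then 10.52, 10.54 and 10.62. Its midpoint arrays were well apart from the rest, with a change of −0.35 (adjusted p = 0.048), but the call was lost under both other normalizations and without any 1 of the 6 arrays compared. Sdhd changed by −0.53 and Sdhc by −0.41, both lost under those normalizations. In complex III, Uqcrfs1 changed by −0.64 (adjusted p = 0.0024) and Cyc1 by −0.47 (adjusted p = 0.00149), and both held under every setting.

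At the end of lonafarnib in Bin-2, 0 of the 56 genes were called against the start in either direction. Of all genes 8.07% were, 3.41% lower and 4.66% higher. The median of the set was −0.024, and 31 of the 56 changes were below 0. The lowest was that of Ndufa4, −0.388, with arrays at 10.634, 10.418 and 10.384 at the start and 9.989, 10.105 and 10.178 at the end. The end arrays of Ndufv1, Uqcrc1 and Uqcrc2 also lay below all their start arrays. A missing call does not show a return to the start level. From midpoint to end 32 genes rose and 1 fell (19.8% of all genes rose and 9.97% fell, 29.7% in all), with a median of 0.38. The rises took in 2 of 6 core subunits, 15 of 28 accessory subunits, 5 of 7 assembly factors, 3 of 4 in complex II and 7 of 9 in complex III. After Ndufs5 the largest were Ndufc1 (0.94, SE 0.131), Ndufb9 (0.88), Ndufa3 (0.85) and Ndufs7 (0.79). The 1 fall was Ndufa11 (−0.41, adjusted p = 0.0308), whose call was lost when its probesets were averaged. After quantile or cyclic loess normalization 17 genes were called, 16 of them higher, with medians of 0.27 and 0.25 in that order, and 14 of the 33 calls held under every setting and array left out.

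**Figure D4:**
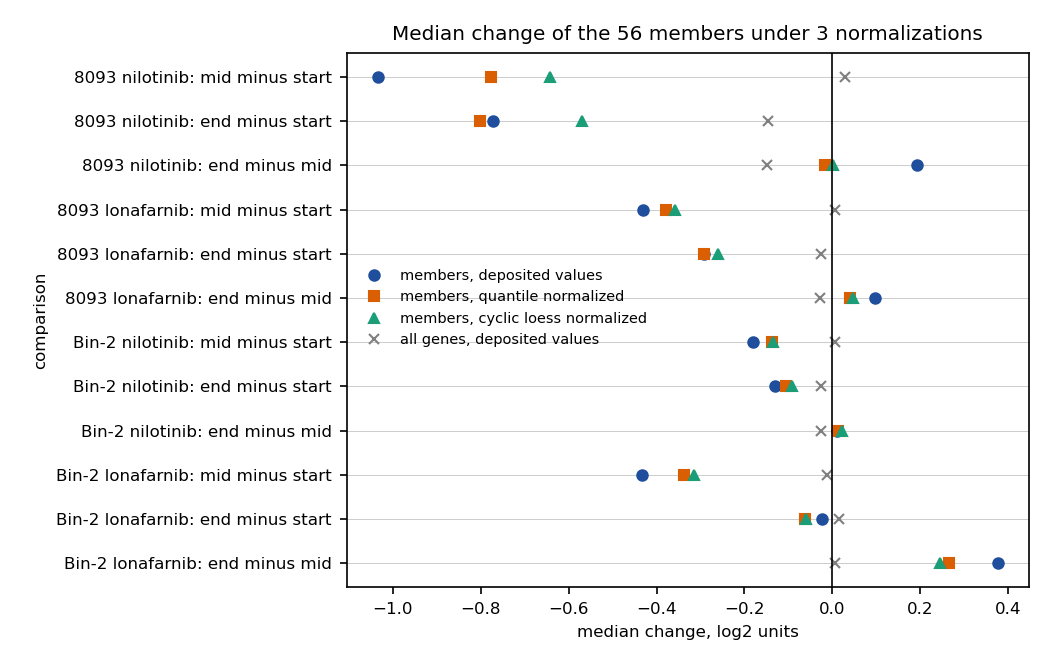
Median change of the 56 genes, in log2 units (horizontal axis), for 12 comparisons over time within a line and drug (vertical axis), from the deposited values (circles) and after quantile (squares) or cyclic loess (triangles) normalization; crosses give the median of all genes in the deposited values. The median at the midpoint of 8093 with nilotinib moves from −1.04 to −0.78 and −0.64, and that from midpoint to end of the same series from 0.19 to −0.016 and 0.001.

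Across the 3 midpoints with many calls, 18 of the 56 genes fell at each, a pattern that 574 of the 19938 genes (2.88%) also showed. The core subunits among them were Ndufs7, Ndufs8, Ndufv1 and Ndufv2, and the accessory subunits Ndufa5, Ndufb5, Ndufb6, Ndufb8, Ndufb9, Ndufc1, Ndufs5 and Ndufs6. The others were the assembly factor Ndufaf6 and, in complex III, Cyc1, Uqcr10, Uqcrc1, Uqcrc2 and Uqcrq. Of complex II there was none, since Sdhb was not called in Bin-2 and the other 3 were not called in 8093 with lonafarnib. At the other extreme, 6 genes were called in none of the 8 comparisons with a start: Ndufa11, Ndufa4l2, Ndufa7, Ndufb10, Ndufb7 and Uqcrh. The same was true of 29.3% of all genes. Ndufa4l2, known as a target of hypoxia signalling, stayed between 4.48 and 5.43 on all arrays.

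Gene by gene, the size of the change at the midpoint of 8093 with nilotinib had a Pearson r of 0.601 (Spearman rho 0.641) with that of Bin-2 with lonafarnib, over 56 genes. The r was 0.589 with 8093 with lonafarnib and 0.444 with Bin-2 with nilotinib. Between 8093 with lonafarnib and Bin-2 with nilotinib it was 0.5. It was lower between the drugs in Bin-2, at 0.3, and between the lines with lonafarnib, at 0.266. These comparisons have separate start arrays, and the points share the array design.

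Because each drug had its own start, the drugs and lines could be compared as differences between changes. At the midpoint of 8093 the change was more negative with nilotinib than with lonafarnib in 28 of the 56 genes and less negative in 0, where 17.6% of all genes were lower and 9.19% higher by this test. The median difference was −0.53, and −0.37 after quantile and −0.25 after cyclic loess normalization. It was −1.19 for Ndufc1 (SE 0.185, adjusted p = 2.05e-05), −1.15 for Uqcrb, −1.12 for Ndufb6 and −1.11 for Ndufaf1. After cyclic loess normalization 14 genes were called. Days, doses and viability differed between these groups and cannot be told apart from the drug.

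At the end of 8093 the difference was called in 22 genes, all lower with nilotinib (17.4% of all genes were lower and 15.7% higher). It was −1.43 for Ndufa2 (SE 0.346, adjusted p = 0.00145), −1.35 for Ndufs6, −1.31 for Cyc1 (SE 0.152, adjusted p = 3.59e-08) and −1.25 for Ndufc2. For Ndufa2 it was −0.90 without the second lonafarnib end array. In Bin-2 the sign was turned at the midpoint, with a median difference of 0.30, but 1 gene was called (1.04% of all genes were higher): Ndufb8, by 0.64 (SE 0.169, adjusted p = 0.0491). That call was lost under both other normalizations and without any 1 of 11 of the 12 arrays compared. At the end of Bin-2 0 genes were called (9.51% of all genes were), with a median difference of −0.13.

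Between the lines, the nilotinib change at the midpoint was less negative in Bin-2 than in 8093 for 40 of the 56 genes and more negative for 0, where 18% of all genes were higher and 8.01% lower. The median difference was 0.78, and 0.65 after quantile and 0.50 after cyclic loess normalization. Ndufb6 differed by 1.53 (SE 0.219, adjusted p = 5.21e-06), Ndufc1 by 1.5, Ndufs6 by 1.43 and Cyc1 by 1.28. Ndufb6 in Bin-2 measured 8.81, 8.90 and 8.75 at the start and 8.55, 8.56 and 8.70 at the midpoint, a narrow gap beside that of 8093. At the end the difference was called in 27 genes, all higher in Bin-2 (15.6% of all genes were higher and 15% lower). Ndufc2 differed by 1.60 (SE 0.192, adjusted p = 8.19e-08), Ndufs6 by 1.37 and Cyc1 by 1.32. Ndufc2 in Bin-2 measured 9.98, 9.72 and 9.93 at the start and 10.03, 10.14 and 9.97 at the end, and these arrays overlapped. The dose of nilotinib also differed between the lines.

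The lonafarnib change at the midpoint differed between the lines in 0 of the 56 genes, with a median difference of 0.011, where 4.2% of all genes differed. At the end it differed in 3 genes, all higher in Bin-2 (2.12% of all genes were higher and 2.49% lower): Ndufa5 by 0.85 (SE 0.196, adjusted p = 0.00792), Uqcr10 by 0.77 and Ndufs5 by 0.76. Ndufa5 kept its call under every setting and array left out. The count was 1 without the first 8093 start array, the third 8093 start array, the second 8093 end array, the second Bin-2 start array, the third Bin-2 start array or the third Bin-2 end array, and 5 without the first Bin-2 start array.

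The lines also differed before any drug. Over the 12 start arrays 31 of the 56 genes were lower in Bin-2 and 1 was higher, where 10.6% of all genes were lower and 9.47% higher, 20.1% in all, with a median difference of −0.28. Ndufb6 differed most, by −1.35 (SE 0.109, adjusted p = 4.63e-11): the 6 arrays of 8093 read 9.87 to 10.39, and the 6 of Bin-2 read 8.69 to 8.90. The 2 sets were far apart, more so than for the next members, Ndufaf1 at −0.61 and Ndufaf2 at −0.59. The gene that was higher was Ndufaf3 (0.30), lost under both other normalizations. Within each line the 2 start groups differed in 0 genes of all 19938, and the median difference of the set was 0.15 in 8093 and −0.076 in Bin-2.

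Genes of neighbouring steps of mitochondrial energy metabolism were counted for comparison, in lists chosen for their function. At the midpoint of 8093 with nilotinib, where 27.5% of all genes fell and 22.6% rose, 11 of 13 subunits of complex IV fell (median −0.85), with Cox7a2 at −1.67 and Cox7b at −1.24. Of 16 subunits of ATP synthase 15 fell (median −0.83), with Atp5g1 at −1.35 and Atp5l at −1.15. Of 18 assembly factors of complexes I to III outside the set 13 fell (median −0.86), among them Foxred1 (−1.70), which acts on complex I, and Bcs1l (−1.24), which inserts the Rieske protein into complex III. Of 17 enzymes of the TCA cycle 14 fell (median −0.77), with the succinyl-CoA ligase subunits Suclg1 at −1.62 and Suclg2 at −1.58. Of 14 genes for electron carriers and ubiquinone synthesis 11 fell, with Coq5 at −1.40 and cytochrome c, Cycs, at −1.28. Of these calls 8, 11, 11, 11 and 10 in that order were kept after both other normalizations, and Cox7a2l, Sdhaf2 and Idh2 turned sign under cyclic loess without a call.

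At the other midpoints fewer of these genes were called. With lonafarnib in 8093 8 of 13 genes of complex IV, 9 of 16 of ATP synthase and 7 of 17 of the TCA cycle fell, where 6.9% of all genes fell. With lonafarnib in Bin-2 the counts were 8, 7 and 9, where 12% of all genes fell, and with nilotinib in Bin-2 they were 1, 0 and 0, where 1.6% did. From midpoint to end of lonafarnib in Bin-2, 8 of 13 genes of complex IV and 7 of 16 of ATP synthase rose, as did 19.8% of all genes.

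**Figure D5:**
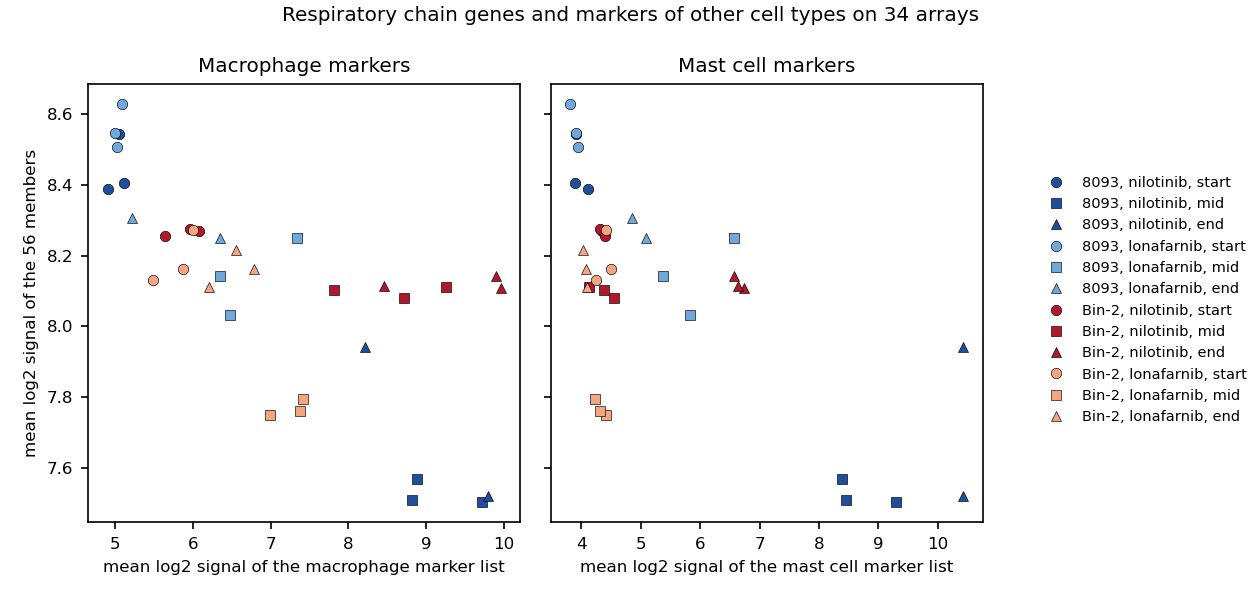
Mean log2 signal of the 56 genes on each of the 34 arrays (vertical axis) against the mean log2 signal of the marker list of another cell type on the same array (horizontal axis, 1 panel per list); colour and shape give line, drug and time. The midpoint arrays of 8093 with nilotinib average 7.53 in the set with macrophage markers at 9.14 and mast cell markers at 8.71, those of Bin-2 with lonafarnib 7.77 with 7.26 and 4.32, and the end arrays of Bin-2 with nilotinib 8.12 with 9.44 and 6.65. The relation between the axes was not tested.

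The brightest marker of each type had these group means at start, midpoint and end of 8093 with nilotinib. Lyz2 of macrophages read 4.76, 12.43 and 12.56, and Cpa3 of mast cells read 4.70, 12.62 and 13.59. Thbs1 of the fibroblast list read 6.65, 11.63 and 10.38, while the mean of that whole list read 4.88, 6.28 and 5.54. Igll1, the surrogate light chain of pre-B cells, read 12.02, 11.18 and 7.50. At the midpoint of Bin-2 with lonafarnib Cpa3 read 5.24 and at its start 6.22, and Lyz2 read 10.37 and at its start 7.17. In the same groups Thbs1 read 8.625 and at its start 8.735, and Igll1 read 11.38 and at its start 12.04.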

How the data were processed

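RNA from 34 cultures was measured on Affymetrix Mouse Gene 1.0 ST arrays, 1 array per sample. The deposited values are log2 probeset signals; scale and normalization between arrays were read from the values themselves, whose array medians lie between 5.21 and 5.44 (method and background correction: not given in the sources used here). Partek is named per the submitters' processing notes, without version or role. Of 35557 probesets, 21789 list a single gene symbol in the platform annotation, 1621 list several and 12147 are not listed; only the first were used, and the brightest probeset stood for each of the 19938 genes. Of the set, 7 genes have more than 1 probeset, and 3 further probesets that list several symbols (Ndufs5 with its pseudogene, and Ndufb4) were left out.

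Group means of 12 groups were fitted to all 34 arrays with limma 3.58.1 in R 4.3.3 (lmFit and eBayes, two-sided, residual df 22, prior df 6.699), with Benjamini-Hochberg adjustment over all genes and calls at an adjusted p below 0.05. The script was tested on simulated data. The number of arrays per group limits the precision. There were 0 pairs of arrays with identical values. Alternatives were quantile and cyclic loess normalization, a trended robust prior and the mean of a gene's probesets. A further one left out dim genes, those whose highest group mean was under 5. The others were replicate blocks by number or plate letter, the compared groups alone, and each array left out. Chosen for naming were all members of complexes II and III, the core subunits and the Ndufa4 pair. To these were added, per comparison, up to 4 called members each way with the largest changes and no overlap between arrays. Calls against the majority were also chosen, and of other lists up to 2 called genes each way and the brightest markers. Not all of these are given with values in every comparison. Other genes named were chosen after their values were seen. The members and lists were chosen with earlier results of these data known. Figures were drawn with Python 3.11.15 and matplotlib 3.10.9.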

Additional observations from a re-analysis of the deposited data

Results flagged for a closer look

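Differences between drugs or lines in the same contrast drew attention wherever the fit's own test of the difference called genes of the set. At the 8093 midpoint 28 genes differed between nilotinib and lonafarnib, with Ndufc1 at −1.193 log2 units. At the 8093 end 22 genes differed, with Ndufa2 at −1.434. At the Bin-2 midpoint 1 gene differed between the drugs, Ndufb8 at 0.64. For nilotinib, Bin-2 minus 8093, 40 genes differed at the midpoint, with Ndufb6 at 1.532, and 27 at the end, with Ndufc2 at 1.598. For lonafarnib 3 genes differed at the end, with Ndufa5 at 0.845. No group has 4 or more arrays, so no search for a single outlying array within a group was made.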

How the results depend on the processing

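Counts of called genes among the 56 stayed within 1.5 times the reported count in the comparisons and settings not given here. After quantile normalization the counts were 16 for Bin-2 lonafarnib midpoint minus start, 17 for end minus midpoint, 1 for Bin-2 nilotinib midpoint minus start and 0 for the Bin-2 midpoint difference between drugs. After cyclic loess they were 13, 17, 1 and 0, with 14 for the 8093 midpoint difference between drugs and 1 for that at the Bin-2 end. Without dim genes, and with a trended robust prior, Bin-2 nilotinib end minus start gave 3 and 3, Bin-2 lonafarnib end minus start 1 and 1, the Bin-2 midpoint difference 2 and 2, and the lonafarnib end difference between lines 6 and 5. With the compared groups alone the counts were 12 for 8093 nilotinib end minus midpoint, 2 for 8093 lonafarnib end minus midpoint, 0 for Bin-2 nilotinib end minus start, 18 for Bin-2 lonafarnib midpoint minus start, 0 for the Bin-2 midpoint difference and 1 for the Bin-2 end difference. The median of the set from midpoint to end of 8093 nilotinib turned to −0.016 after quantile normalization and to −0.085 without the second end array (0.387 without the first).

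Equal replicate numbers did not pair the arrays: their deviations from group means had correlations of −0.183 to 0.164 over 32 pairs, 2 of them over 0.1. For some end arrays of 8093 the plate letter differs from the replicate number, so some of these pairs join different plates. Elsewhere number and letter matched, so the other pairs were also pairs by plate letter. With the number as a replicate block the counts were 1 for 8093 lonafarnib end minus midpoint, 1 and 0 for Bin-2 nilotinib midpoint and end minus start, 0 for the Bin-2 midpoint difference and 1 for the lonafarnib end difference. With the plate letter as block they were 3, 2 for Bin-2 nilotinib end minus start, and 0 for the Bin-2 midpoint difference.

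Leaving out 1 array at a time gave 46 to 47 calls at the 8093 nilotinib midpoint, 34 to 41 at its end and 16 to 28 between them; 16 to 29, 2 to 14 and 2 to 7 for 8093 lonafarnib; 0 to 1, 0 to 1 and 0 to 0 for Bin-2 nilotinib; and 23 to 30, 0 to 1 and 24 to 35 for Bin-2 lonafarnib. It gave 25 to 30 before drug, 24 to 30 and 15 to 25 for the drug differences in 8093, 0 to 1 and 0 to 1 in Bin-2, 35 to 40 and 20 to 36 for the nilotinib differences between lines, and 0 to 1 and 1 to 5 for lonafarnib. For genes of the set chosen for naming, no called change over time within a line and drug reversed under any setting or array left out. This does not extend to the other lists, where Cox7a2l, Sdhaf2 and Idh2 turned sign under cyclic loess. The cause of these shifts was not tested.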

Other observations

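Regulators of the chain did not all move with it. Of 14 regulators of respiratory chain transcription, 8 fell and 2 rose at the midpoint of 8093 with nilotinib, where 27.5% of all genes fell and 22.6% rose. Of these 10 calls 7 were kept after both other normalizations. Tfam, which packages and transcribes mitochondrial DNA, fell by 1.56 (SE 0.182) and its partner Tfb2m by 1.19 (SE 0.133). Ppargc1a, the coactivator PGC-1 alpha, rose: its arrays read 6.42, 5.85 and 5.87 at the start, 7.86, 6.88 and 7.48 at the midpoint and 4.49 and 4.34 at the end. The midpoint arrays lay above and the end arrays below all start arrays, with changes of 1.36 (SE 0.203, adjusted p = 1.95e-06) and −1.63 (SE 0.227, adjusted p = 4.82e-07) in limma's fit. With lonafarnib in 8093 Ppargc1a read 6.16, 6.06 and 5.88, then 8.47, 8.43 and 8.05, then 6.85 and 6.55, a rise of 2.29 at the midpoint (SE 0.203, adjusted p = 8.02e-09). In Bin-2 its arrays stayed between 3.3 and 4.1.

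A few mitochondrial genes rose at the end of 8093 with nilotinib, while 42 genes of complexes I to III were lower. Pcx, pyruvate carboxylase, read 6.14, 5.77 and 5.96 at the start and 8.77 and 9.62 at the end, a rise of 3.24 (SE 0.214, adjusted p = 1.05e-13). Gpd2, the mitochondrial glycerol phosphate dehydrogenase that reduces ubiquinone without complex I, read 7.57, 7.52 and 7.46 and then 9.71 and 9.71, a rise of 2.19 (SE 0.156, adjusted p = 5.92e-13). Sdhaf2, which attaches the flavin to Sdha, rose by 0.84 (SE 0.14), and Sdhaf4 rose by 1.37 (SE 0.166) from midpoint to end. In the same end arrays the mast cell markers averaged 10.43 and the pre-B markers 5.73, and their part in these values was not tested.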
